A study of Mus musculus with 8 samples.

Results

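The genes that dividing cells switch on to copy their DNA and to separate their chromosomes were followed in the livers of Cic-L-/- mice and of wildtype mice. The list has 49 genes, chosen by name and with earlier results of these data known. Of these, 22 act in DNA replication or at the start of S phase and 27 act between G2 and the end of cell division. The platform annotation gives 71 probes for 42 of the 49, out of 25697 probes for 16593 named genes on the array, and probes for 29 of the 42 were bright enough to test. Every sample was liver total RNA from an animal of 18 days labelled C57BL. The 4 Cic-L-/- samples came from mice lacking the long form of capicua, an HMG-box transcriptional repressor, and the 4 wildtype samples from mice with normal Cic. The labels do not say which cells lost the gene, what sex the animals were, or whether a sample is 1 animal, so the p-values cover only how much these samples vary, part of which can be technical. In liver as a whole, more dividing cells and more of these transcripts per dividing cell cannot be told apart.

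A cell that leaves G1 releases E2F transcription factors from the retinoblastoma proteins, and E2F then raises the enzymes that load the replicative helicase, supply deoxynucleotides and build the fork. Genes of mitosis follow later in the cycle under B-Myb and FoxM1, which bind with the MuvB complex at a promoter element called the cell cycle genes homology region (CHR), often close to CCAAT boxes. In resting cells the DREAM complex, which also contains MuvB, holds both sets low. In mouse liver, hepatocytes still divide during the weeks after birth and then mostly come to rest, while blood precursors, Kupffer cells and endothelial cells can also contribute dividing cells.

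Values are log2 bead signals after background correction and quantile normalisation, and a change is the Cic-L-/- mean minus the wildtype mean on that scale. A probe was above background on an array where fewer than 5% of the control rows were at least as bright, and 38.7% to 43.5% of probes passed on an array. A gene rose or fell where limma gave a Benjamini-Hochberg adjusted p under 0.05 over all 8255 tested features. Cic-L-/- replicates 1 and 2 stood apart from replicates 3 and 4 on the second principal component of all features (13.7 and 12.8, against -11.6 and -25.0), so counts are also given without each of these pairs. The liver markers Ttr and Apoa1 were bright on all 8 arrays, while the Alb probe was above background on 3 Cic-L-/- and 4 wildtype arrays.

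Of the 29 tested members 9 rose in Cic-L-/- liver and 0 fell, by limma. Over all features tested 7.39% were called, 4.49% rose and 2.90% fell, so the share of members that rose, 31.0%, was well above that background. The list was chosen with earlier results of these data known, so this comparison and those below describe it and give no independent support. At an unadjusted p under 0.05, 19 members were higher and 0 lower, where 12.6% of all features were higher. The change was positive for 28 of the 29, against 50.4% of all features, and its median was 0.616, against 0.0032 over all features. On 14 members all 4 Cic-L-/- values exceeded all 4 wildtype values, a separation that 8.53% of all features showed, and on 0 members were all lower, against 6.55% of all features. All 9 that rose were above background on all 8 arrays, where 24 members and 6560 features were, and 4.31% of those features rose. Over all 42 members with a probe, dim ones included, the median change was 0.425 and 36 were positive, against a median of -0.0052 over all genes and unnamed probes. In that fit without a detection filter 9 of 42 rose, against 1.62% of 18312 features. The plot of single arrays shows that the higher signal was spread over most of the list and all 4 Cic-L-/- arrays.

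**Figure D1:**
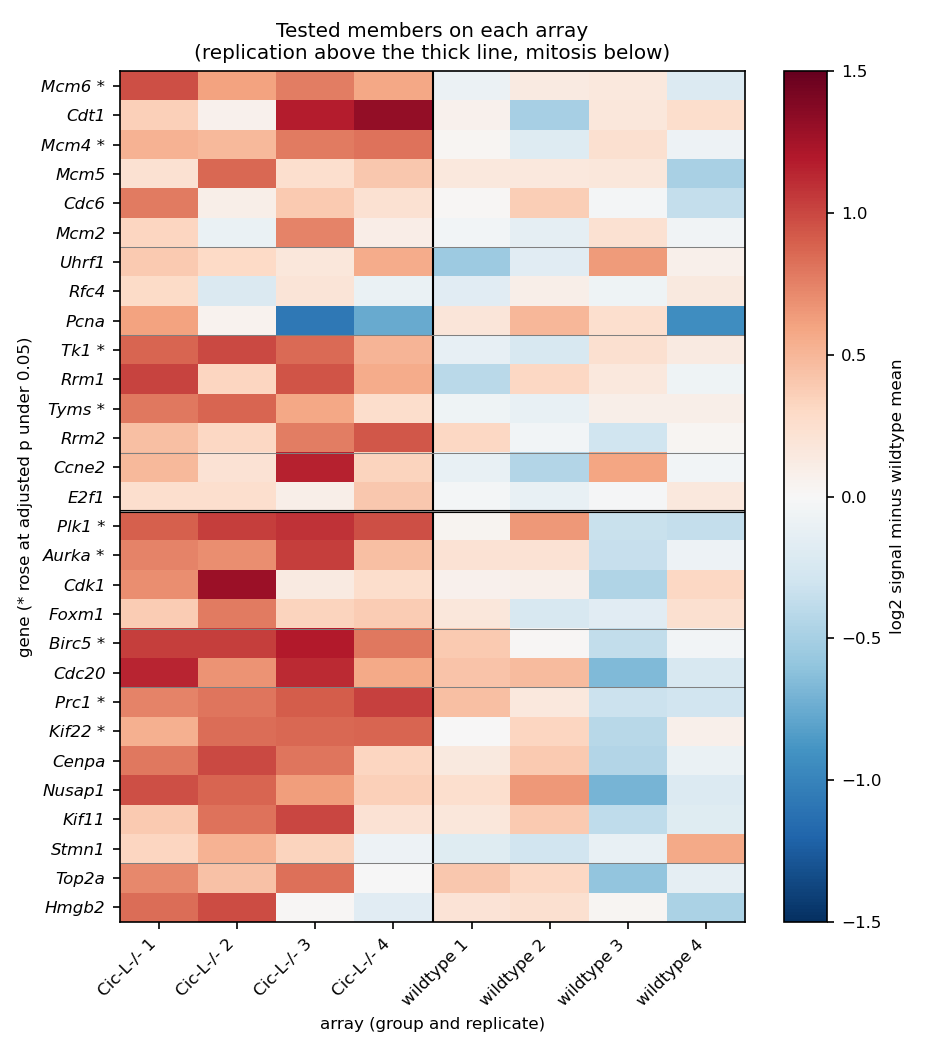
Log2 signal of each of the 29 tested members on each array, minus that gene's wildtype mean (colour scale). Columns are the 4 Cic-L-/- and the 4 wildtype arrays, rows are genes grouped by role, and an asterisk marks the 9 genes that rose. Red fills most of the Cic-L-/- side, and Pcna has the deepest blue on Cic-L-/- arrays 3 and 4.

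The 9 that rose were Mcm4, Mcm6, Tk1 and Tyms among replication genes and Aurka, Birc5, Kif22, Plk1 and Prc1 among mitosis genes. Their promoters are shown first, because E2F sites and the CHR are the elements through which the cycle is known to time both sets. The windows are RefSeq sequence of build GRCm38.p6, from 250 bases before to 50 bases after the start of the gene, and the table held 20 windows for 18 replication members and 22 for 21 mitosis members. Searched on both strands were the E2F letters TTTCCCGC, TTTCGCGC, TTTGCCGC and TTTGGCGC, the CHR letters TTTGAA, the CCAAT letters CCAAT, and the octamer bound by CIC as TGAATGAA, TGAATGGA, TCAATGAA or TCAATGGA. Matches may overlap. For replication and mitosis the members with the smallest adjusted p are printed, 2 of each, in lower case with every match in capitals. They lie at chr11:117825965-117826264 on the minus strand (Tk1), chr1:128359656-128359955 on the minus strand (Mcm6), chr11:117848987-117849286 on the plus strand (Birc5) and chr7:122159185-122159484 on the plus strand (Plk1).
Mcm6: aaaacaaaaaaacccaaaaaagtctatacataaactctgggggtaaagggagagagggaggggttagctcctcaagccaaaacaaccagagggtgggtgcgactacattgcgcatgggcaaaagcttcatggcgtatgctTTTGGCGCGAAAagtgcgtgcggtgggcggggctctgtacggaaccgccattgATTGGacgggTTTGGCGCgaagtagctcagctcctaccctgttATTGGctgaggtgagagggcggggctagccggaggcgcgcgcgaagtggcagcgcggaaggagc
Tk1: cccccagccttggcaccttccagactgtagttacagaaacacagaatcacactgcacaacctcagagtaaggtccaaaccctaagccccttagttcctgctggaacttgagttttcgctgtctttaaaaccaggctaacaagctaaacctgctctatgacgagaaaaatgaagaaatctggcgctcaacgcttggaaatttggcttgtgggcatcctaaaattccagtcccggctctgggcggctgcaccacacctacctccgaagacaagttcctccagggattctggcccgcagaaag
Plk1: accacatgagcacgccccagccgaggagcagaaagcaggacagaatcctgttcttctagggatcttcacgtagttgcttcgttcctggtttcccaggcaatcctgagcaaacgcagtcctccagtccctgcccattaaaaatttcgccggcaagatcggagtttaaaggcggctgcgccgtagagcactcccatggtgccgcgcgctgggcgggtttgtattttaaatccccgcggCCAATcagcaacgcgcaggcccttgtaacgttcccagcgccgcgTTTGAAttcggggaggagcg
Birc5: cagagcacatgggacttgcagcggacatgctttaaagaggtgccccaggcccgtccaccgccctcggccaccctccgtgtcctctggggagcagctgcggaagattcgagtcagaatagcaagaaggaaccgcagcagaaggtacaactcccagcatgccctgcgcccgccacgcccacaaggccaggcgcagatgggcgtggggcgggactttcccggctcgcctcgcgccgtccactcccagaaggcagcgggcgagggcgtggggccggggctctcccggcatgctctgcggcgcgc

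The Mcm6 window holds 3 E2F matches, 2 of which overlap on opposite strands, and 2 CCAAT matches. The Plk1 window holds 1 CCAAT match and 1 CHR match after the start of the gene. The Tk1 and Birc5 windows hold none of these letters, which says nothing of other forms of the sites. Over the list, an E2F match was present in 8 of 20 replication promoters (40.0%) and 1 of 22 mitosis promoters (4.55%, that of Cdk1), against 2.26% of all 32851 promoters. A CHR match was present in 17 of 22 mitosis promoters (77.3%) and 1 of 20 replication promoters (5%, that of Mcm2), against 17.9% of all promoters. CCAAT was found in 86.4% of mitosis and 65.0% of replication promoters, against 37.4% of all. The CIC octamer was found in 1 of 20 replication promoters (one of the Mcm7 windows) and 0 of 22 mitosis promoters, against 3.84% of all. Among the 8056 promoters of tested genes the shares were 3.66% (E2F), 12.3% (CHR), 38.3% (CCAAT) and 2.33% (CIC octamer). Their median content of G and C was 60%, against 59.8% for replication, 58.7% for mitosis and 52.7% for all promoters. The members that rose had 9 windows for 8 genes, Prc1 having 2 and Mcm4 none, and 1 window held an E2F match and 5 a CHR match, both Prc1 windows among them. The plot of motif matches shows the split between both sets of genes. A match is a description of the letters and not a site.

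**Figure D2:**
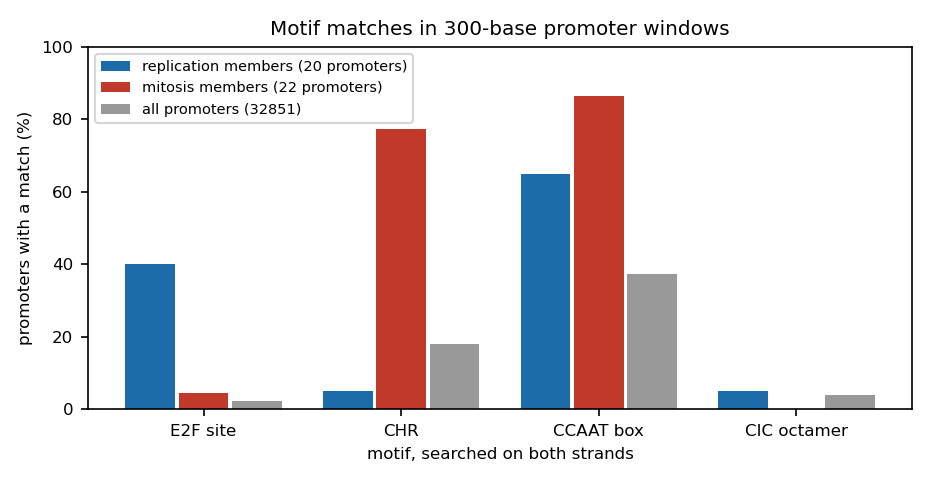
Percent of promoter windows of 300 bases with at least 1 match, for replication members (20 promoters), mitosis members (22) and all 32851 promoters. E2F matches reach 40.0% in the replication bars and CHR matches 77.3% in the mitosis bars, while the CIC octamer stays at 5% or below in all 3.

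Among the genes that license origins and form the helicase, Mcm6 and Mcm4 rose. Both are subunits of the MCM ring that unwinds DNA at the fork. Mcm6 had log2 signals of 9.52, 9.16, 9.33 and 9.14 on Cic-L-/- arrays and 8.47, 8.69, 8.72 and 8.36 on wildtype arrays. The groups did not overlap, and the change was 0.73 ± 0.15 (SE, 1.66-fold, adjusted p = 0.0156). Before any correction its deposited intensity was 707.1 to 1070 in Cic-L-/- liver and 381.5 to 525.3 in wildtype liver. Control rows were brighter too, with medians of 138.5 to 141.9 on Cic-L-/- arrays and 114.2 to 136.3 on wildtype arrays. Deposited intensities, here and below, therefore include a difference in array brightness and are no separate measure of a change. The other 2 kept Mcm6 probes changed by 0.85, without overlap, and by 0.68, with groups that overlapped. Mcm4 had 10.48, 10.45, 10.74 and 10.77 on Cic-L-/- arrays and 9.98, 9.77, 10.20 and 9.88 on wildtype arrays, again without overlap (0.65 ± 0.15 SE, 1.57-fold, adjusted p = 0.027). Of the 3 Mcm4 probes only the tested probe was bright enough to keep. Leaving out Cic-L-/- replicate 1 cost Mcm6 its call (adjusted p = 0.0506). Mcm4 kept its call only when wildtype replicate 3 or Cic-L-/- replicate 2 was the array left out (otherwise up to an adjusted p of 0.0777).

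The other 4 tested licensing genes did not pass. Cdt1, which brings the MCM ring to origins together with Cdc6, had 6.91, 6.61, 7.72 and 7.86 on Cic-L-/- arrays and 6.61, 6.04, 6.71 and 6.81 on wildtype arrays (0.73, adjusted p = 0.150). Cic-L-/- replicates 3 and 4 were high, replicate 1 lay just above the highest wildtype array and replicate 2 within the wildtype range. Without replicates 1 and 2 the Cdt1 change was 1.25 (adjusted p = 0.0396), and without replicates 3 and 4 it was 0.21 (adjusted p = 0.624). Both fits drop arrays by a split seen in these same data, so they describe the spread and give no independent support. Mcm5 differed by 0.44 (adjusted p = 0.226) with groups that did not overlap, Cdc6 by 0.37 (adjusted p = 0.295) and Mcm2 by 0.26 (adjusted p = 0.452). The probes of Mcm3 and Mcm7 were too dim to test, at 1 and 0 of 8 arrays above background, so 4 of the 6 subunits of the MCM ring were tested and 2 of them rose.

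All 4 genes of deoxynucleotide supply were higher at an unadjusted p under 0.05 by limma, and their groups did not overlap. Of all features 12.6% were higher at that p, and 8.53% were higher with groups that did not overlap. Tk1 and Tyms, which make thymidine monophosphate by salvage and from scratch, rose. Tk1 had 10.28, 10.40, 10.26 and 9.92 on Cic-L-/- arrays and 9.28, 9.16, 9.65 and 9.55 on wildtype arrays (0.81 ± 0.17 SE, 1.75-fold, adjusted p = 0.0144), and its deposited intensity was 1109 to 1689 in Cic-L-/- liver and 606.7 to 895.8 in wildtype liver. A dimmer Tk1 probe differed by 0.41, with groups that overlapped. Tyms had 9.14, 9.22, 8.93 and 8.61 on Cic-L-/- arrays and 8.28, 8.24, 8.44 and 8.43 on wildtype arrays (0.63 ± 0.16 SE, 1.54-fold, adjusted p = 0.0398). Of the 5 Tyms probes only the tested probe was bright enough to keep. Both subunits of ribonucleotide reductase just missed the threshold. The large subunit Rrm1 differed by 0.71 ± 0.21 (SE, adjusted p = 0.0605) and the small subunit Rrm2 by 0.62 ± 0.19 (adjusted p = 0.0682), although a dimmer Rrm2 probe differed by only 0.09. The Tk1 call held with any 1 array left out (highest adjusted p = 0.0484). Tyms kept its call only when Cic-L-/- replicate 4 was the array left out (highest adjusted p otherwise 0.113).

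The fork genes and the G1/S regulators did not pass, 0 of 3 and 0 of 2 tested, with 0 and 1 higher at an unadjusted p under 0.05 by limma. Of all features 12.6% were higher at that p. Pcna, the sliding clamp, was the only tested member with a negative change (-0.29 ± 0.38 SE, adjusted p = 0.704). Its signals were 6.25, 5.69, 4.57 and 4.89 on Cic-L-/- arrays and 5.82, 6.14, 5.89 and 4.70 on wildtype arrays, and it was above background on 2 Cic-L-/- and 3 wildtype arrays, so this probe measures Pcna poorly. The clamp loader subunit Rfc4 differed by 0.04 (adjusted p = 0.910), and Uhrf1, which guides maintenance DNA methylation behind the fork, by 0.36 (adjusted p = 0.389). The primase and polymerase alpha subunits Prim1 and Pola1 were not tested, with 1 and 0 of 8 arrays above background. The transcription factor E2f1 differed by 0.25 (adjusted p = 0.323) and cyclin E2 (Ccne2), above background on 4 Cic-L-/- arrays and 1 wildtype array, by 0.55 (adjusted p = 0.222). Ccne1 was above background on 0 arrays.

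Among mitotic kinases and their regulators, Plk1 and Aurka rose. Polo-like kinase Plk1 drives entry into mitosis and spindle assembly. It had 7.26, 7.40, 7.45 and 7.33 on Cic-L-/- arrays and 6.41, 7.01, 6.03 and 6.01 on wildtype arrays, without overlap (0.99 ± 0.21 SE, 1.99-fold, adjusted p = 0.0164). In the deposited log2 values, which keep the background, its change was 0.48. Aurora kinase A (Aurka), which acts at centrosomes, had 8.62, 8.58, 8.91 and 8.32 on Cic-L-/- arrays and 8.09, 8.09, 7.53 and 7.80 on wildtype arrays (0.73 ± 0.18 SE, 1.66-fold, adjusted p = 0.0321). The mitotic kinase Cdk1 differed by 0.60 (adjusted p = 0.190), with replicate 2 highest at 8.20 among Cic-L-/- arrays. Its change was 0.99 without Cic-L-/- replicates 3 and 4 (adjusted p = 0.0452) and 0.20 without replicates 1 and 2 (adjusted p = 0.707). These fits too drop arrays by a split seen in these data and give no independent support. Foxm1, the transcription factor of the late cycle, differed by 0.47 (adjusted p = 0.130) and its groups did not overlap. The Plk1 call held with any 1 array left out (highest adjusted p = 0.0479). Aurka lost its call on leaving out Cic-L-/- replicate 1, 2 or 3, and also on leaving out wildtype replicate 3 or 4 (highest 0.0792).

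Birc5 had the largest change of the 29. It encodes survivin, a subunit of the chromosomal passenger complex that corrects faulty spindle attachments. Its signals were 8.86, 8.86, 9.01 and 8.61 on Cic-L-/- arrays and 8.22, 7.84, 7.45 and 7.78 on wildtype arrays, so the lowest Cic-L-/- array lay above the highest wildtype array. The change was 1.01 ± 0.18 (SE, 2.02-fold, adjusted p = 0.00675). The other 2 Birc5 probes changed by 1.02, with groups that overlapped, and by 0.88, without overlap. The deposited intensity of the probe tested was 527.8 to 735.7 in Cic-L-/- liver and 286.7 to 406.9 in wildtype liver. The call held with any 1 array left out (highest adjusted p = 0.0251). Cdc20, which activates the anaphase-promoting complex, differed by 0.88 ± 0.26 (SE, adjusted p = 0.0639) without overlap. Its other 2 kept probes differed by 1.17, without overlap, and by 0.69, with groups that overlapped. The checkpoint kinases Bub1 and Bub1b and the ubiquitin-conjugating enzyme Ube2c were not tested, with 0, 2 and 1 of 8 arrays above background.

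Of the genes of the spindle and of cytokinesis, Prc1 and Kif22 rose. Prc1 bundles microtubules between the separating chromosomes. It had 9.40, 9.46, 9.57 and 9.68 on Cic-L-/- arrays and 9.11, 8.82, 8.33 and 8.37 on wildtype arrays (0.87 ± 0.19 SE, 1.83-fold, adjusted p = 0.0184). The chromokinesin Kif22 had 7.54, 7.85, 7.87 and 7.88 on Cic-L-/- arrays and 7.01, 7.33, 6.59 and 7.09 on wildtype arrays (0.77 ± 0.18 SE, 1.71-fold, adjusted p = 0.0232). Neither gene's groups overlapped. The centromeric histone Cenpa differed by 0.72 (adjusted p = 0.0562), the spindle protein Nusap1 by 0.71 (adjusted p = 0.135), the spindle motor Kif11, above background on 2 wildtype arrays, by 0.60 (adjusted p = 0.130) and the tubulin-binding protein Stmn1 by 0.27 (adjusted p = 0.478). Prc1 lost its call on leaving out wildtype replicate 4 (adjusted p = 0.0538). Kif22 lost its call on leaving out Cic-L-/- replicate 2 or 3, and also wildtype replicate 1 or 3 (highest 0.066).

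Neither chromatin protein of dividing cells passed. Topoisomerase Top2a, which untangles sister chromatids, differed by 0.49 (adjusted p = 0.262). The DNA-bending protein Hmgb2 differed by 0.41 (adjusted p = 0.407), with 6.05 and 6.19 on Cic-L-/- arrays 1 and 2 and 5.22 and 5.04 on arrays 3 and 4, against 4.73 to 5.45 on wildtype arrays. Without Cic-L-/- replicates 3 and 4 the Hmgb2 change was 0.91 (adjusted p = 0.0412), and without replicates 1 and 2 it was -0.08 (adjusted p = 0.905).

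The remaining members give little or no reading. Besides those named above, cyclin A2 (Ccna2), cyclin B2 (Ccnb2) and the cytokinetic motor Kif20a were above background on 0 arrays, the kinase Melk on 1 and the spindle assembly factor Tpx2 on 2, all of these Cic-L-/- arrays. Of the 13 members with a probe that was too dim to test, 6 or more arrays were dim in every case, and their changes ran between -0.18 (Ccnb2) and 0.33 (Melk). No probe was named for Gins1, Gins2, Ccnb1, Aurkb, Cdkn3, Racgap1 or Mki67. All 7 members with over 1 kept probe had changes of the same sign on each of them. The plot of changes with their errors sets the 29 tested genes side by side.

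**Figure D3:**
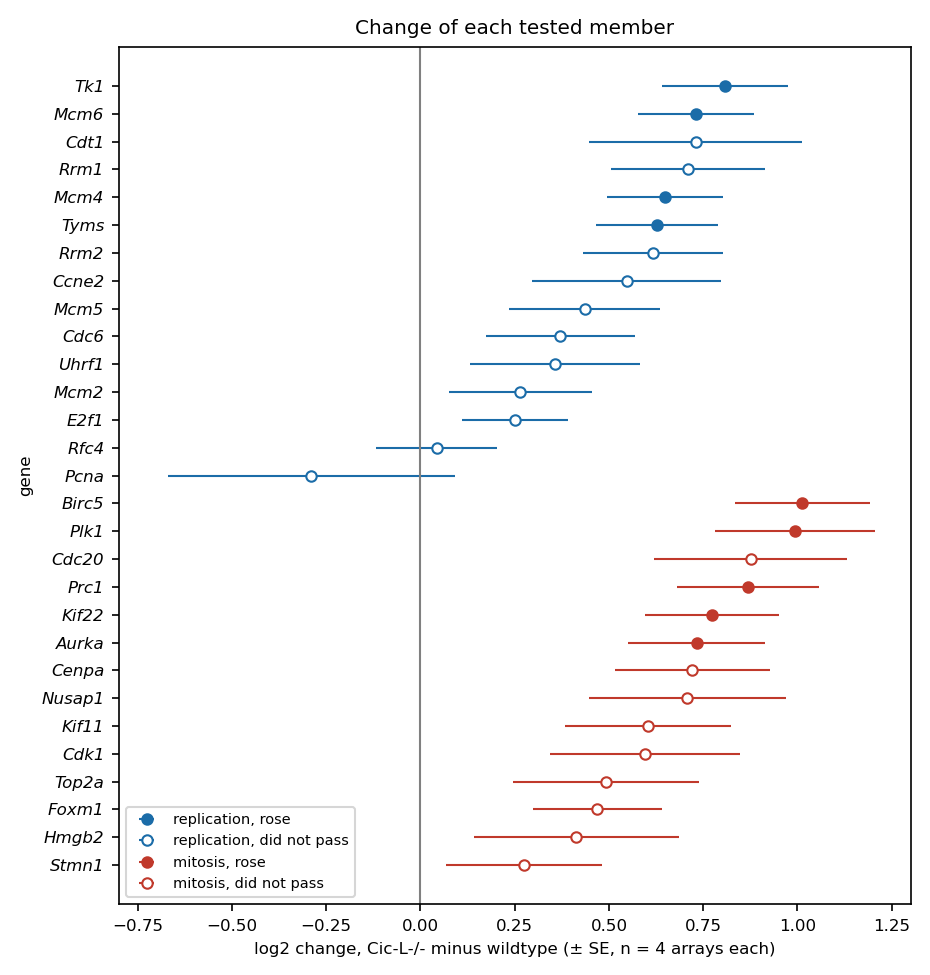
Log2 change of each tested member, Cic-L-/- minus wildtype, with its standard error (horizontal bars, 4 arrays in each group). Replication genes are blue and mitosis genes red, and filled points rose. Birc5 and Plk1 reach 1.01 and 0.99, and Pcna alone lies below 0.

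Replication and mitosis genes were next set against each other. Of 15 tested replication genes 4 rose (26.7%) with a median change of 0.547, and of 14 tested mitosis genes 5 rose (35.7%) with a median of 0.715. Over all features 4.49% rose and the median was 0.0032. Without background correction the medians were 0.26 and 0.447, and under median centring 7 replication and 8 mitosis genes rose. Median centring also moved the median of all features to 0.17, and 8.54% of all features rose under it. The change of mitosis genes ran between 0.275 and 1.01, that of replication genes between -0.289 and 0.808. Averaged over the replication genes, signals relative to the wildtype mean were 0.56, 0.34, 0.52 and 0.41 on Cic-L-/- arrays 1 to 4 and -0.06, -0.02, 0.17 and -0.09 on wildtype arrays 1 to 4. Averaged over the mitosis genes, they were 0.73, 0.84, 0.73 and 0.42 on Cic-L-/- arrays and 0.20, 0.24, -0.38 and -0.06 on wildtype arrays. All 4 Cic-L-/- arrays exceeded all 4 wildtype arrays in both. No test of the difference between both sets was made, and the ranges of their changes overlap.

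The sets did not vary alike among arrays of 1 group. Wildtype replicate 3 was the lowest wildtype array for 10 of 14 mitosis genes and the highest for 8 of 15 replication genes. Cic-L-/- replicate 4 was the lowest of its group for 9 of 14 mitosis genes and 3 of 15 replication genes, while Cic-L-/- replicate 2 was lowest for 8 of 15 replication genes and 0 of 14 mitosis genes. The median standard deviation of a mitosis gene was 0.261 among Cic-L-/- arrays and 0.351 among wildtype arrays, and that of a replication gene 0.283 among Cic-L-/- arrays and 0.251 among wildtype arrays.

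The counts depended on the arrays more than the direction did. With 1 array left out, 1 to 4 replication genes and 3 to 7 mitosis genes rose, and the medians stayed between 0.494 and 0.568 and between 0.527 and 0.827. Of all features 2.35% to 4.55% rose in these fits. The lowest replication count, 1, came without Cic-L-/- replicate 1, and counts of 2 came on leaving out replicate 3 of Cic-L-/- or replicate 1, 2 or 4 of wildtype. Mitosis counts of 3 came on leaving out replicate 2 or 3 of Cic-L-/-, or replicate 3 or 4 of wildtype. Without Cic-L-/- replicates 1 and 2, 1 replication gene (Cdt1) and 0 mitosis genes rose by limma, with medians of 0.422 and 0.581. At an unadjusted p under 0.05, 8 replication and 6 mitosis genes were higher there and 1 member was lower. In that fit 148 features were called in all, in place of 610, and 0.812% of all features rose. Without Cic-L-/- replicates 3 and 4, 3 replication and 3 mitosis genes rose, with medians of 0.383 and 0.828. There 722 features were called in all, and 5.15% of all features rose.

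Genes with related roles outside the list were counted in the same fit. Their lists were also chosen with earlier results of these data known, so their shares are descriptions too. Of 26 other mitosis genes tested, 7 rose and 0 fell, with a median change of 0.566. The share that rose was 26.9%, against 4.49% of all features. At an unadjusted p under 0.05 by limma, 16 were higher and 0 lower, where 12.6% of all features were higher. The chromosomal passenger scaffold Incenp had 7.12, 7.28, 6.97 and 6.93 on Cic-L-/- arrays and 5.96, 5.81, 5.80 and 5.82 on wildtype arrays (1.23 ± 0.14 SE, 2.35-fold, adjusted p = 3.38e-04). Incenp and Birc5 are partners in the same complex. The cytokinetic motor Kif23 rose 2.35-fold (adjusted p = 0.00213), the condensin subunit Ncaph 1.81-fold (adjusted p = 0.00698), the contractile ring protein Anln 1.79-fold (adjusted p = 0.017), lamin B1 (Lmnb1) 1.66-fold (adjusted p = 0.019) and the mitotic kinase Pbk 2.34-fold (adjusted p = 0.0425). The other that rose was Cdca3, 1.82-fold (adjusted p = 0.0476). With any 1 array left out, Incenp, Kif23 and Ncaph kept their calls. Anln lost its call without Cic-L-/- replicate 1 or 2 (highest adjusted p = 0.0545), and Lmnb1 without these or wildtype replicate 2 or 3 (highest 0.0573). Pbk kept its call only without wildtype replicate 1 or 2 (highest otherwise 0.103), and Cdca3 only without Cic-L-/- replicate 4 or wildtype replicate 1 or 2 (highest otherwise 0.130). Both also lost it without the detection filter (adjusted p = 0.0928 for Pbk, 0.0900 for Cdca3), and Cdca3 with all kept probes tested (0.0536).

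Of 32 other replication genes tested, 3 rose and 1 fell (median 0.18). The share that rose was 9.38%, against 4.49% of all features. Tipin, which steadies the fork, rose 1.76-fold (adjusted p = 0.00777), the clamp loader subunit Rfc2 1.57-fold (adjusted p = 0.0323) and DNA ligase Lig1 1.77-fold (adjusted p = 0.0398). Mcm10, which helps start the helicase, went the other way, with 7.71, 8.11, 8.01 and 8.71 on Cic-L-/- arrays and 8.58, 8.94, 9.32 and 9.19 on wildtype arrays. Its groups overlapped at Cic-L-/- replicate 4, and it fell 1.83-fold (-0.87 ± 0.23 SE, adjusted p = 0.041). Tipin kept its call with any 1 array left out. Rfc2 kept it only without Cic-L-/- replicate 3 or wildtype replicate 4 (otherwise up to an adjusted p of 0.0904), Lig1 only without Cic-L-/- replicate 2 or wildtype replicate 3 (0.103) and Mcm10 only without Cic-L-/- replicate 4 or wildtype replicate 1 (0.116). Lig1 also lost its call without background correction (adjusted p = 0.0585), Mcm10 under median centring (0.0594), and both without the detection filter (0.0697 for Lig1, 0.0769 for Mcm10).

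At entry into the cycle, all 3 D cyclins rose, out of 13 tested genes of G1 entry (median 0.239). The share of this list that rose was 23.1%, against 4.49% of all features. Ccnd3 had 10.36, 10.40, 10.11 and 10.23 on Cic-L-/- arrays and 9.46, 9.41, 9.43 and 9.37 on wildtype arrays (0.86 ± 0.13 SE, 1.81-fold, adjusted p = 0.00348). Ccnd2 rose 1.69-fold (adjusted p = 0.00816) and Ccnd1 1.46-fold (adjusted p = 0.0435), the last with a call that ended when any 1 array was left out (highest adjusted p = 0.108). Among 12 tested inhibitors and pocket proteins, Cdkn1c rose and Ccng2 fell. That is 1 of 12 in each direction, where 4.49% of all features rose and 2.90% fell. Cdkn1c, a cyclin-dependent kinase inhibitor of the p57 type, had 12.66, 12.85, 12.79 and 12.35 on Cic-L-/- arrays and 11.14, 11.08, 11.02 and 10.87 on wildtype arrays (3.10-fold, adjusted p = 8.99e-05). Ccng2, a cyclin known for its high level in resting cells, had 8.17, 7.54, 7.32 and 7.15 on Cic-L-/- arrays and 8.79, 8.27, 8.35 and 8.65 on wildtype arrays (1.96-fold lower, adjusted p = 0.0232). Its call ended on leaving out replicate 2 or 3 of Cic-L-/-, or replicate 1 or 4 of wildtype (highest adjusted p = 0.0659), and under median centring (0.0927). Without Cic-L-/- replicates 1 and 2, the genes of these 4 lists that rose were Incenp, Kif23, Ccnd2 and Cdkn1c. The plot of changes by list shows how far each list spread around its median.

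**Figure D4:**
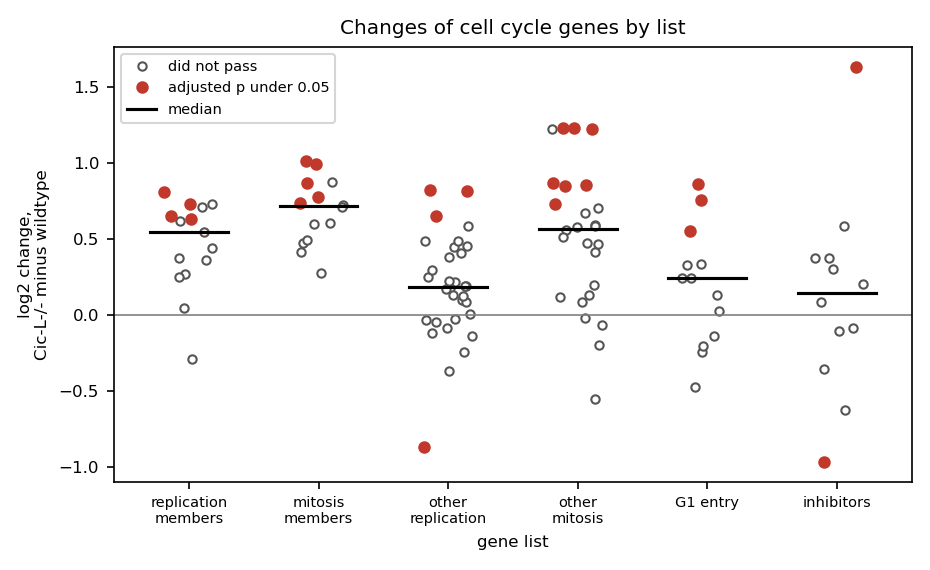
Log2 change, Cic-L-/- minus wildtype, of every tested gene in the 2 groups of members and in 4 lists of related genes. Filled points passed at an adjusted p under 0.05 and lines are medians. Medians are 0.547 and 0.715 for replication and mitosis members, 0.18 and 0.566 for other replication and other mitosis genes, 0.239 for G1 entry and 0.142 for inhibitors.

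Markers of cells that may divide in liver were measured on the same arrays. Summed background-free signals of 8 tested Kupffer cell markers were 8255, 8384, 4022 and 4136 on Cic-L-/- arrays and 3353, 3307, 3024 and 3164 on wildtype arrays. Adgre1, C1qc and Marco rose, the other 5 did not pass, and the defining markers Clec4f and Vsig4 differed by 0.25 (adjusted p = 0.308) and 0.54 (adjusted p = 0.255), with Cd5l above background on 0 arrays. Sums of 8 neutrophil markers were 3830 to 7219 in Cic-L-/- liver and 2624 to 3126 in wildtype liver. S100a8, S100a9 and Ltf rose and the other 5 did not pass, and the defining marker Ngp was not among those that rose. Of the tested Kupffer cell markers, and likewise of the tested neutrophil markers, 37.5% rose, against 4.49% of all features. Among lymphocyte and megakaryocyte markers Cd79a and Pf4 rose, 1 of 4 and 1 of 2 tested, with sums of 226 to 405 and 103 to 302 in Cic-L-/- liver and 160 to 219 and 79 to 132 in wildtype liver. The part of these cells in the higher cell cycle signals was not tested.

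Other cell types showed no call by limma. Of 5 tested erythroid markers 0 passed (0 at an unadjusted p under 0.05), with sums of 18905 to 32767 in Cic-L-/- liver and 25150 to 27554 in wildtype liver. There Alas2 differed by 0.30 (adjusted p = 0.295), and Klf1 passed background on a single array, of a Cic-L-/- liver. Of 3 granulocyte precursor markers (124 to 274 in Cic-L-/- liver, 134 to 174 in wildtype liver), 8 endothelial markers (4373 to 5756 in Cic-L-/- liver, 4278 to 4737 in wildtype liver) and 5 stellate cell markers (11359 to 13394 in Cic-L-/- liver, 9468 to 11134 in wildtype liver), 0 passed, with 1, 2 and 2 higher at an unadjusted p under 0.05. Over all features 12.6% were higher at that p. Cholangiocyte markers were too dim to test, with Krt19 above background on 0 arrays. The Kupffer cell signal split Cic-L-/- arrays 1 and 2 (1.56 and 1.70 above wildtype on average over its markers) from arrays 3 and 4 (0.48 and 0.47). Over all 29 cell cycle members the averages on Cic-L-/- arrays 1 to 4 were 0.64, 0.58, 0.62 and 0.42.

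**Figure D5:**
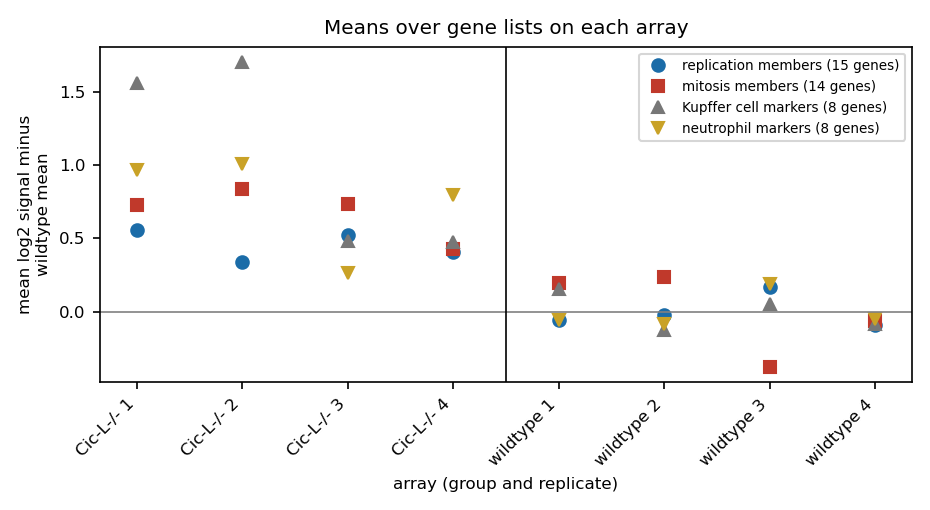
Mean log2 signal minus the wildtype mean on each array for replication members (15 genes), mitosis members (14), Kupffer cell markers (8) and neutrophil markers (8). Cic-L-/- arrays stand left of wildtype arrays. Kupffer cell markers are at 1.56 and 1.70 on Cic-L-/- arrays 1 and 2 and at 0.48 and 0.47 on arrays 3 and 4, while both sets of members lie between 0.34 and 0.84 on all 4.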

How the data were processed

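Liver RNA of 4 Cic-L-/- and 4 wildtype samples was hybridised to single-colour bead arrays. The deposited intensity values are linear and not normalised between arrays. The deposited log2 values equal quantile-normalised log2 intensities to within 5.0e-05, and the deposited series matrix repeats them. How beads were summarised, and which slides were used, is not given in the sources used here.

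From the intensities, background was corrected with normexp on the 1124 rows without a probe ID, taken as negative controls from their values (limma 3.58.1, R 4.3.3, robust, offset 16). The values were put on the log2 scale and quantile normalised. The 10300 probes above background on 4 or more arrays (detection p under 0.05) stayed in, and each gene took its brightest kept probe, giving 8255 features. Genes were matched by the platform annotation's symbol and gene ID. limma (lmFit, eBayes, two-sided) with Benjamini-Hochberg adjustment over all features made the calls. The fit was also run on simulated data with independent noise on each array. That simulation lacked the split among Cic-L-/- arrays, so it gives no support for the calls made here. The offset understates changes of dim probes. The number of arrays limits the precision.

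Summed signals are linear and without the offset. Named genes are all members, called genes of 4 related lists (at most 6 a list, Cdca3 being added to complete its count) and called cell type markers. Marker values beyond these were named as defining markers. Members and lists were chosen with earlier results of these data known. Promoter and gene tables are from RefSeq (GRCm38.p6). Alternatives were no background correction, median centring, other detection filters, all kept probes, a variance trend, a replicate block, and arrays left out.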

Additional observations from a re-analysis of the deposited data

Results flagged for a closer look

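In 3 of 62 groups of 4 arrays examined (29 genes and 2 list means, in each genotype), a single array lay far from the other 3 by Dixon's test, and chance gives about 1 in 20. Mcm5 had 7.216 on wildtype array 4, against 7.856 to 7.864 on the other wildtype arrays. Foxm1 had 6.766 on Cic-L-/- array 2, against 6.311 to 6.364 on the other Cic-L-/- arrays. Kif22 had 7.535 on Cic-L-/- array 1, against 7.846 to 7.877 on the others of its group.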

How the results depend on the processing

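No called member changed sign under any alternative, and 0 members fell under any. Of 488 values of single members under the alternatives, 427 kept their side of the threshold, 40 lost a call and 21 gained one. Without background correction the medians were 0.26 for replication and 0.447 for mitosis members. Median centring moved the median of all features to 0.17 and the calls to 705 higher and 131 lower (84.3% higher), in place of 371 and 239 (60.8% higher). Under it 7 replication members, 8 mitosis members and 22 other cell cycle genes rose, and the replication median was 0.658. Without the detection filter the replication median was 0.364. With 1 array left out, 326 to 628 features were called, 1 to 4 replication members, 3 to 7 mitosis members and 7 to 13 other cell cycle genes rose. Without Cic-L-/- replicates 1 and 2 these were 148, 1, 0 and 4, with a replication median of 0.422. Without replicates 3 and 4, 722 features were called, 3 mitosis members and 9 other genes rose, and the replication median was 0.383. The cause was not tested. The labels link same-numbered samples by the number alone and do not say whether they are paired. Their deviations from the group means correlated at -0.0316 to 0.0504, which cannot show that they are unpaired. With a replicate block 468 features, 3 replication members and 4 mitosis members were called, and Tyms (adjusted p = 0.0851) and Aurka (adjusted p = 0.0651) were not. Signal over background limits the reading of 13 members with dim probes and of Pcna, Ccne2, Kif11, Hmgb2 and Cdc6, which were below background on some arrays.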
